A study of Rattus norvegicus with 18 samples.

Results

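Secreted Wnt antagonists are proteins released by cells that keep Wnt ligands from signalling. The 7 genes examined here were *Frzb*, *Sfrp1*, *Sfrp2*, *Sfrp4*, *Sfrp5*, *Dkk3* and *Wif1*, taken by gene symbol from a count table of 15075 RefSeq identifiers. Of these, 6 genes had 1 row each in the table, and no identifier of *Wif1* matched a row, so *Wif1* was not analysed here. The set was selected on measured values, since *Frzb* had been seen to be higher after injury and lower with NT3 in these same libraries. For that reason the differences of *Frzb* between groups are given as a description, with no test, and tests are given for the other 5 genes.

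The RNA came from dorsal root ganglia (DRG) at C6-C8 of 18 adult lister hooded rats. For each rat 1 poly(A) library was made from the pooled ganglia of 1 side, the treated side in injured rats. The side taken in naive rats, which were not treated, is not given. The naive group (rats 41, 42, 43, 44, 45 and 49) had no surgery. The bPYX+GFP group (rats 5, 15, 18, 21, 52 and 57) had a bilateral pyramidotomy, a cut of the corticospinal tract on each side of the medulla, and then an AAV1 vector carrying EGFP under the CMV promoter in the forelimb flexor muscles of one side. The bPYX+NT3 group (rats 2, 11, 17, 23, 39 and 40) had the same injury and an AAV1 vector carrying human neurotrophin-3 (NT3), a growth factor for proprioceptive and other large sensory neurons. DRG of both injured groups were taken 10 weeks after injury. No group had the injury or a vector alone, so against naive rats the 2 cannot be told apart. The corticospinal axons that were cut do not arise in the DRG. Rats are grouped here by the heading of the count table, whose sample numbers match the recorded samples. The files attached to the recorded samples held identical counts for 18 of 18 rats. For 17 rats, however, the title recorded with the attached file named another group. In the order of those titles, the attached files ran by ascending rat number.

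Wnt proteins bind Frizzled receptors on the cell surface, alone or with the coreceptors Lrp5 and Lrp6, and one branch of the pathway then stabilises beta-catenin, which acts with TCF and LEF factors on target genes. The secreted Frizzled-related proteins, encoded by *Sfrp1*, *Sfrp2*, *Sfrp4*, *Sfrp5* and *Frzb* (also called *Sfrp3*), carry a cysteine-rich domain like that of the receptors and bind Wnt ligands outside the cell. *Dkk3* encodes a divergent Dickkopf protein, and *Wif1* encodes a Wnt-binding protein with a domain of its own. In the adult DRG such proteins can come from neurons, glia or the connective tissue of the ganglion and its sheath, and Wnt signals act on axon growth and on sensory neurons.

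Read-pairs on genes ranged from 10057787 to 16002410 per rat. The neuron markers Rbfox3, Tubb3, Prph, Nefh, Isl1 and Avil had reads in every rat, with a summed normalized count of 40325 to 73579. Libraries of rat 57 (bPYX+GFP) and rat 11 (bPYX+NT3) stood apart from the other 16. Their shares of read-pairs at several locations were 19.0% and 19.7%, against 20.7% to 22.3% in the other rats, and their shares of ambiguous read-pairs were 3.31% and 3.41%, against 2.79% to 3.04%. Their summed neuron markers were also the highest of all rats, at 68199 and 73579. Results that rest on these libraries are given with and without them.

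The promoters of *Frzb*, the gene that differed most between groups, and of *Sfrp5*, the gene whose level ran against the others between rats, are shown so that both can be set beside the levels. They span 250 bases before to 50 bases after the start of the gene in RefSeq (build GRCr8), 5′ to 3′ on the strand of the gene, at chr3:85772047-85772346 (minus strand) for *Frzb* and chr1:250960463-250960762 (minus strand) for *Sfrp5*. Capitals mark a match to the TCF/LEF letters CTTTG followed by 2 bases that are each A or T, on either strand.
Frzb: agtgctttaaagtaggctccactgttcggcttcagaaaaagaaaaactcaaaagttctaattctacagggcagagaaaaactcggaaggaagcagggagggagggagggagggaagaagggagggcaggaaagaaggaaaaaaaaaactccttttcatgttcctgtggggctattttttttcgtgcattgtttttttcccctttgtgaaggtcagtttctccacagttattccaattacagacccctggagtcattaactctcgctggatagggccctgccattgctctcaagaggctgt
Sfrp5: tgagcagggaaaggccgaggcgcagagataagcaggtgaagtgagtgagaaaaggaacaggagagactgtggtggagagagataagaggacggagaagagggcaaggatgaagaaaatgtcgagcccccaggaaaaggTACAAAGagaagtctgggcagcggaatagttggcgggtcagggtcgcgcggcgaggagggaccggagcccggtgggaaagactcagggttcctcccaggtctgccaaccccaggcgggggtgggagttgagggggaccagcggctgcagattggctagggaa
The *Sfrp5* promoter held 1 match, TACAAAG, starting at position -112 from the gene start, and the *Frzb* promoter held 0. Such a match was present in 17.1% of 33469 RefSeq promoters of the same length, and a match describes letters only. The GC content was 45.3% for *Frzb* and 59.7% for *Sfrp5*, with a median of 51.7% over all promoters. Promoters of *Sfrp2* and *Wif1* were also in the table and held 0 matches.

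*Frzb* was higher in bPYX+GFP rats than in naive rats and, with NT3, lower than in the bPYX+GFP group. Normalized counts, which are counts scaled by TMM library size to the mean library, were 142, 144, 135, 123, 186 and 153 in naive rats 41, 42, 43, 44, 45 and 49. They were 225, 244, 230, 202, 204 and 178 in bPYX+GFP rats 5, 15, 18, 21, 52 and 57. They were 168, 151, 147, 173, 168 and 189 in bPYX+NT3 rats 2, 11, 17, 23, 39 and 40. Thus 5 of 6 bPYX+GFP rats lay above every naive rat, the exception being rat 57, and 5 of 6 bPYX+NT3 rats lay below every bPYX+GFP rat, the exception being rat 40. The naive and bPYX+NT3 groups overlapped, with rat 45 the highest naive rat and 1 bPYX+NT3 rat above all naive rats.

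The means were 147 ± 21.3 (SD, n = 6) in naive, 214 ± 23.8 after injury with GFP and 166 ± 15.4 after injury with NT3. In the edgeR fits the log2 fold change of *Frzb* was 0.54 (SE 0.108, 1.45-fold) for bPYX+GFP against naive, with a 95% interval of 0.31 to 0.77. It was -0.37 (SE 0.0963, 0.776-fold) for bPYX+NT3 against bPYX+GFP and 0.17 (SE 0.107, interval -0.06 to 0.40) for bPYX+NT3 against naive. The first and second comparisons share the bPYX+GFP rats, so their opposite signs are not separate evidence. Without rats 57 and 11 the first and second values were 0.58 and -0.39. With rats grouped by the titles recorded with the attached files they were -0.20 and -0.05, so the difference of *Frzb* was not seen under those titles. The paper lists *Frzb* as higher in bPYX+GFP than in naive rats, the direction found with the heading of the count table. In bulk tissue, fewer cells of a type and less RNA per cell cannot be told apart.

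**Figure D1:**
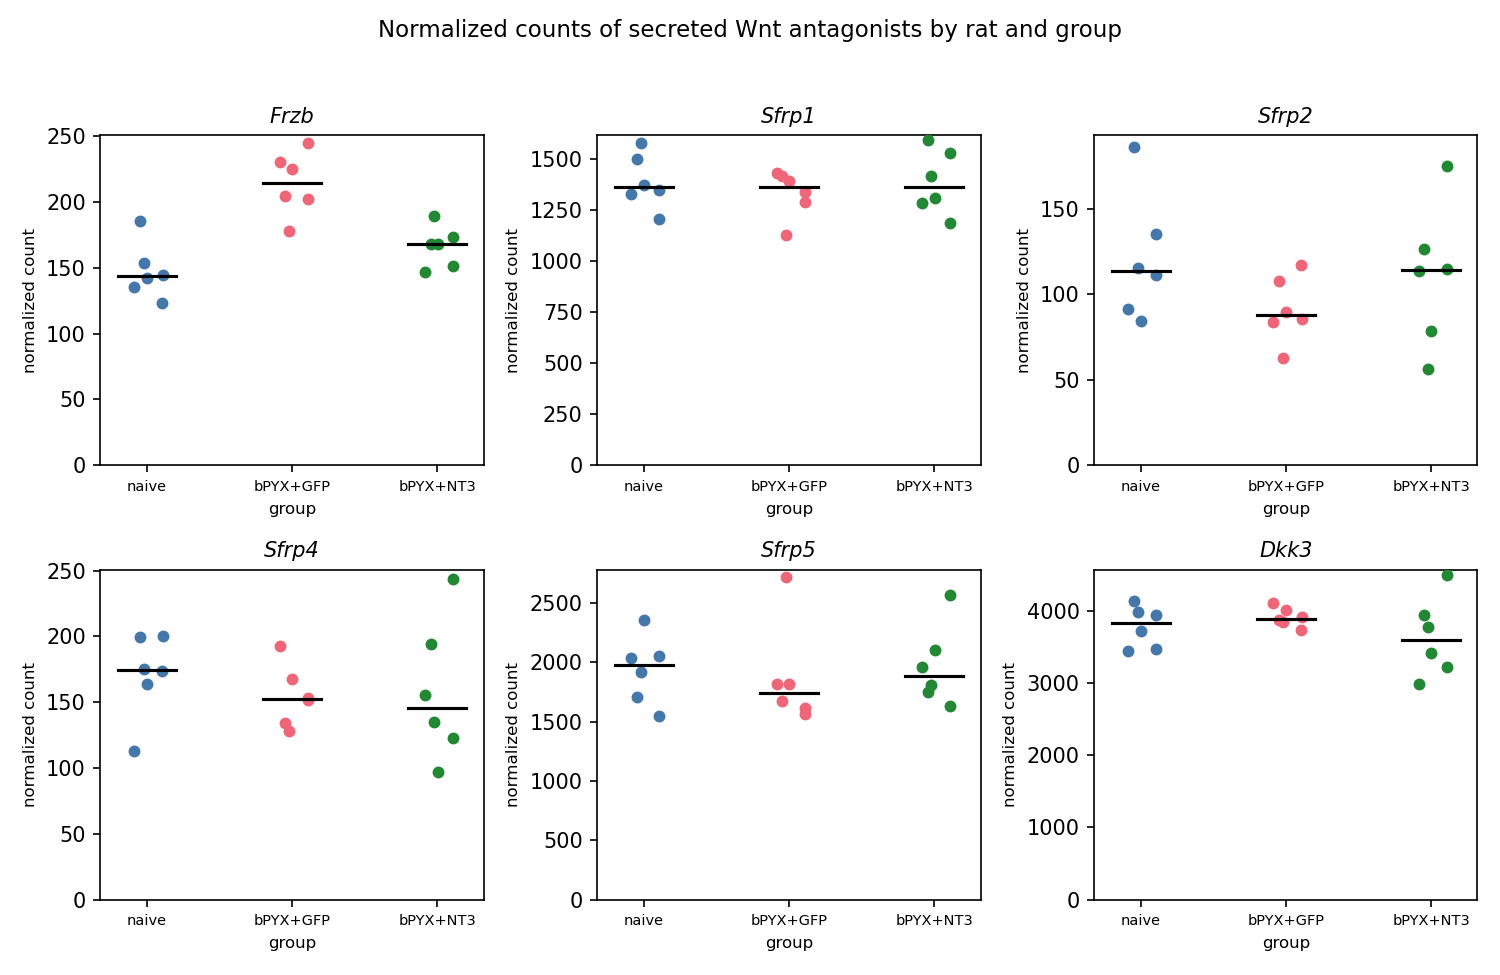
Normalized counts (y axis, from 0) of the 6 secreted Wnt antagonists with a row in the table, by group (x axis). Each point is 1 rat and each black bar is the median of 6 rats; the *Frzb* points of bPYX+GFP rats sit between 178 and 244, against 123 to 186 in naive rats.

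Apart from *Frzb*, for which the set had been selected, 0 of the 5 other genes were called in any of the 3 comparisons, where a call is an unadjusted p under 0.05 in edgeR. Over all genes tested the shares called were 3.25%, 1.73% and 6.01%. After Benjamini-Hochberg adjustment in edgeR's quasi-likelihood test, 0 genes of the whole table were called in any of the 3 comparisons. The smallest adjusted p was 0.201, 0.851 and 0.607, although 377, 201 and 703 genes had an unadjusted p under 0.05. After adjustment edgeR's likelihood ratio test called 13, 0 and 0 and DESeq2 called 17, 0 and 0. The medians of the log2 fold changes of the 5 other genes were -0.06, 0.06 and -0.05, against 0.012, 0.0049 and 0.00051 over all genes tested.

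**Figure D2:**
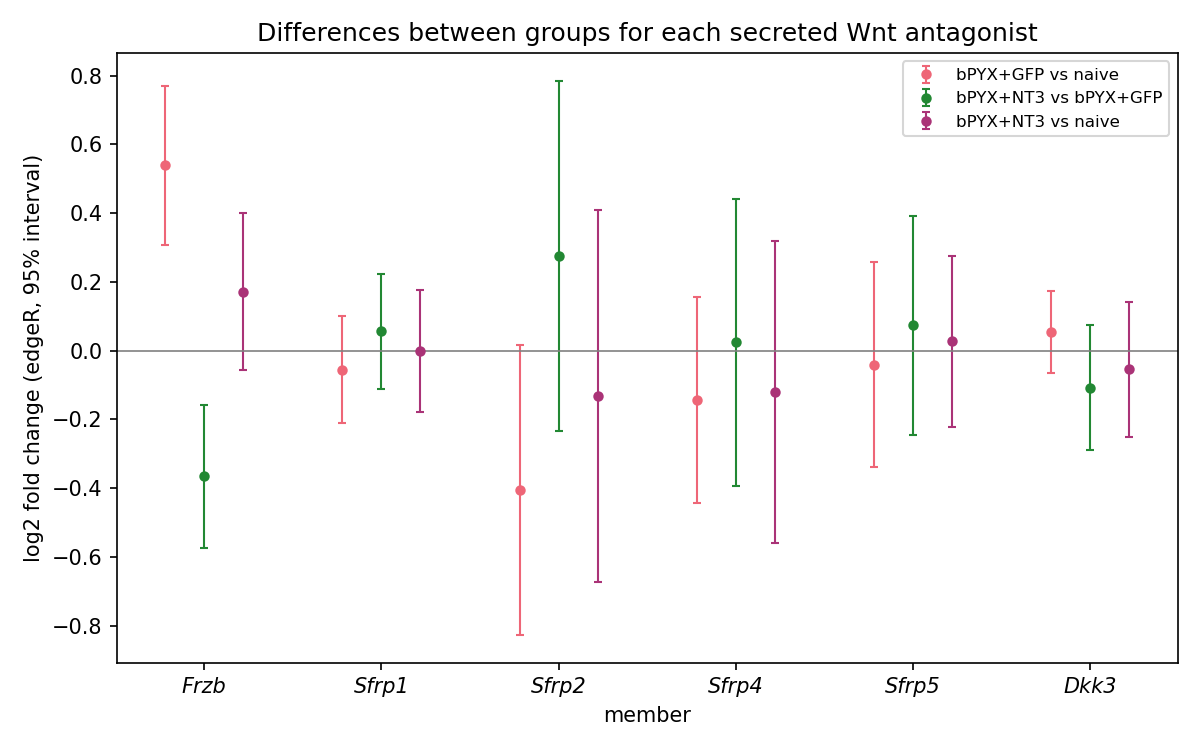
Log2 fold change from edgeR (y axis) of each secreted Wnt antagonist (x axis) in the 3 comparisons, with 95% intervals as bars. The points of *Frzb* sit at 0.54 for bPYX+GFP against naive and -0.37 for bPYX+NT3 against bPYX+GFP. They and their intervals are a description, not a test, since *Frzb* chose the set. All intervals of the other 5 genes include 0.

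*Sfrp2*, a Wnt-binding protein made by many stromal cells, gave the largest difference among the other 5 genes. Its normalized count was 84.7, 113 and 186 (lowest, median and highest) in naive rats, 62.8, 87.8 and 117 in bPYX+GFP rats and 56.2, 114 and 175 in bPYX+NT3 rats. The ranges overlapped, with 2 of 6 bPYX+GFP rats below every naive rat. The log2 fold change between bPYX+GFP and naive rats was -0.40 (SE 0.197, interval -0.83 to 0.02, edgeR p = 0.0590, adjusted p = 0.9998), and the two-sided exact permutation test gave p = 0.0931. The value passed the unadjusted threshold in edgeR when rat 41, 43 or 21 was left out and moved to -0.24 without rat 45. With NT3 against GFP, the log2 fold change was 0.28 (SE 0.237, exact permutation p = 0.448).

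*Sfrp1*, a broadly expressed Wnt-binding protein, had nearly equal medians in the 3 groups. Its normalized counts were 1209, 1364 and 1580 (lowest, median and highest) in naive rats, 1128, 1366 and 1433 in bPYX+GFP rats and 1188, 1366 and 1593 in bPYX+NT3 rats. The ranges overlapped throughout. Its log2 fold changes were -0.06, 0.06 and -0.00086, with exact permutation p of 0.459, 0.526 and 0.957, and the widest interval, for bPYX+NT3 against naive, ran from -0.18 to 0.18.

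*Sfrp4*, a family member known from connective tissue and bone, had normalized counts of 113, 175 and 201 in naive rats, 128, 153 and 193 in bPYX+GFP rats and 97.2, 145 and 243 in bPYX+NT3 rats, given as lowest, median and highest. Its spread was widest in bPYX+NT3 rats, at a coefficient of variation of 33.6%, against 15.1% in bPYX+GFP rats. The log2 fold changes were -0.14 (SE 0.139, exact permutation p = 0.396) for bPYX+GFP against naive, 0.025 (SE 0.194, p = 0.913) for bPYX+NT3 against bPYX+GFP and -0.12 (SE 0.205, p = 0.515) for bPYX+NT3 against naive.

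*Sfrp5*, best known as a Wnt5a-binding secreted factor, had normalized counts of 1543, 1979 and 2352 in naive rats, 1564, 1743 and 2720 in bPYX+GFP rats and 1631, 1885 and 2570 in bPYX+NT3 rats, again as lowest, median and highest. The highest values of the injured groups were those of rats 57 and 11, the libraries that stood apart. Its log2 fold change between bPYX+GFP and naive rats was -0.041 (SE 0.139, exact permutation p = 0.671) with all rats and -0.19 (SE 0.0912) without rat 57. With NT3 against GFP, it was 0.074 (exact permutation p = 0.558), and 0.13 without both rats. Neither value without those rats passed the unadjusted threshold in edgeR.

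*Dkk3* had the lowest coefficient of variation of the 6 genes and 3 groups, at 3.35% in bPYX+GFP rats. Its normalized counts were 3447, 3835 and 4144 in naive rats, 3738, 3895 and 4108 in bPYX+GFP rats and 2993, 3595 and 4496 in bPYX+NT3 rats (lowest, median and highest). Of the bPYX+NT3 rats, 3 lay below every bPYX+GFP rat and 1 above. The log2 fold change between these groups was -0.11 (SE 0.0847, interval -0.29 to 0.07, exact permutation p = 0.216), and -0.18 without rat 23, where it passed the unadjusted threshold in edgeR. Over the 5 genes and 3 comparisons, 0 of the two-sided exact permutation tests gave a p under 0.05, where the smallest p that 924 divisions of 12 rats allow is 0.00216.

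The genes also varied between rats of the same group, which the selection had not used. With group means removed, *Sfrp1* and *Dkk3* varied together over the 18 rats (Pearson r = 0.74, permutation p = 0.00133, adjusted over 15 pairs p = 0.0199; Spearman rho = 0.89, adjusted permutation p = 9e-04). Within groups r was 0.80 in naive, 0.57 in bPYX+GFP and 0.85 in bPYX+NT3. Over 16 rats r was 0.78 without the 2 rats farthest from the median of *Sfrp1*, which were rats 57 and 11, and it passed the adjusted threshold in 18 of 18 fits that left out 1 rat. With library size alone in place of TMM, r was 0.57 (permutation p = 0.0291, adjusted p = 0.145), and 0 of the 15 pairs passed.

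Of the 15 pairs, 1 passed after adjustment by Pearson's r and 7 by Spearman's rho. Without rats 57 and 11, 1 of the 15 passed by r, *Sfrp1* with *Dkk3*, and rho was not computed. The share of all gene pairs that would pass was not computed either. A gene outside the set, *Mrps31*, had a higher rho with *Sfrp1* (0.95) and with *Dkk3* (0.93) than the 0.89 between them. The 5 pairs with *Sfrp5* all had a negative r and the other 10 a positive one. The largest negative r was that of *Sfrp1* and *Sfrp5*, at -0.65 (permutation p = 0.00767, adjusted p = 0.0575), with -0.24 in naive, -0.75 in bPYX+GFP and -0.91 in bPYX+NT3. Without rats 57 and 11 it was -0.32 (adjusted permutation p = 0.448), so this relation rests on those rats. *Frzb* and *Sfrp1* had r = 0.60 (adjusted permutation p = 0.0659) and rho = 0.65 (adjusted permutation p = 0.0314). Their r was 0.45 without rats 57 and 11 (adjusted permutation p = 0.265). *Frzb* and *Dkk3* had r = 0.50 (adjusted permutation p = 0.0665) and rho = 0.63 (adjusted permutation p = 0.0314). Their r was 0.49 without rats 57 and 11 (adjusted permutation p = 0.189). The other pairs that passed by rho alone were *Sfrp1* with *Sfrp4* (0.62) and *Sfrp5* (-0.59), and *Dkk3* with *Sfrp4* (0.65) and *Sfrp5* (-0.61). In that order, r without rats 57 and 11 was 0.44, -0.32, 0.61 and -0.52. The adjusted permutation p was 0.265, 0.448, 0.189 and 0.189.

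**Figure D3:**
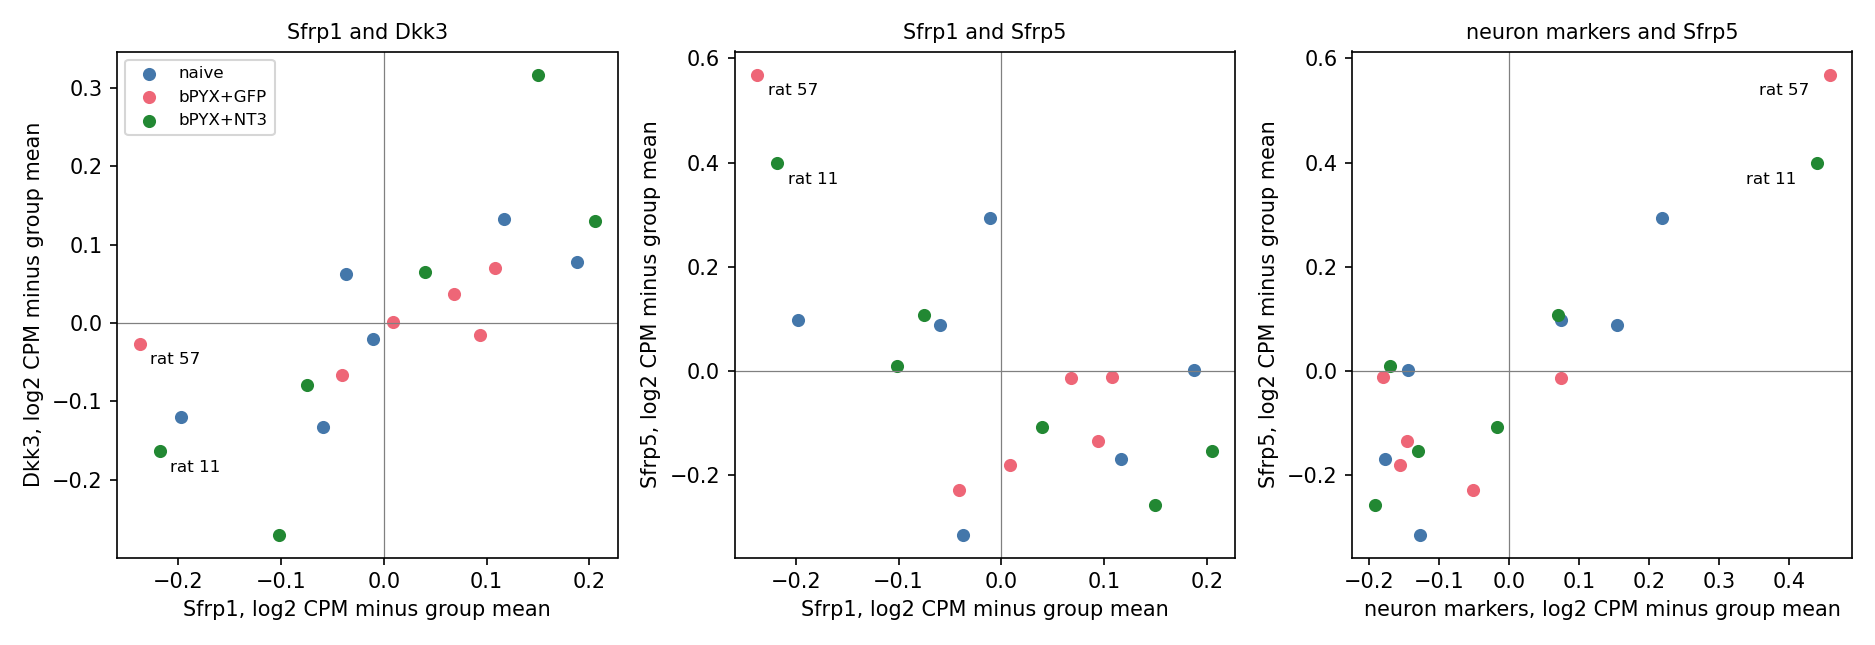
Deviation of log2 CPM from the group mean in each of 18 rats, for *Sfrp1* and *Dkk3*, *Sfrp1* and *Sfrp5*, and the mean of the neuron markers and *Sfrp5*; colours give the groups. Rats 57 and 11, marked, sit at the end of each panel on the x axis, and the *Sfrp1* and *Dkk3* relation (r = 0.74) is also seen among the other rats.

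Markers of the cell types of the ganglion were set beside the genes, in 78 pairs of a gene and a marker list that were computed after the values were seen. *Sfrp5* followed the neuron markers (r = 0.89, permutation p = 8e-05, adjusted p = 0.00624; Spearman rho = 0.68, adjusted permutation p = 0.0568) and the markers of myelinating Schwann cells (r = 0.77, adjusted permutation p = 0.0155; rho = 0.82, adjusted permutation p = 0.0234). *Sfrp5* also passed with the markers of cartilage (r = 0.76), of the perineurium (r = 0.75) and of skeletal muscle (r = 0.81, from 1 tested gene), each at an adjusted permutation p = 0.0155, so that the relation was not particular to neurons and Schwann cells. *Sfrp4* ran against the Schwann cell markers (r = -0.72, adjusted permutation p = 0.0155). The other pairs that passed were *Sfrp1* with neuron markers (r = -0.74) and *Sfrp1* and *Frzb* with the skeletal muscle gene (r = -0.71 and -0.67). Without rats 57 and 11, r of *Sfrp5* was 0.71 with neurons and 0.69 with Schwann cells and r of *Sfrp4* was -0.72, and 0 of the 78 pairs passed after adjustment, against 9 with all rats. The part of cell composition in the level of any gene was not tested.

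**Figure D4:**
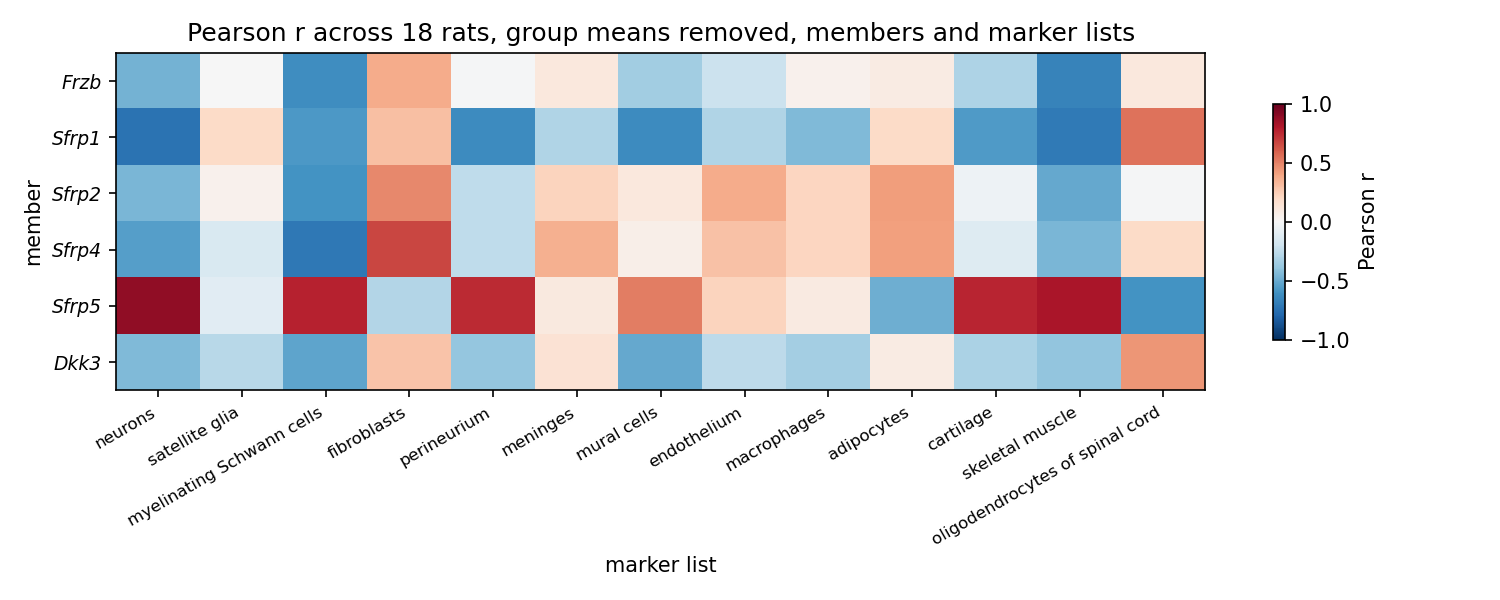
Pearson r over 18 rats, with group means removed, between each secreted Wnt antagonist (y axis) and the mean of each list of cell type markers (x axis); red is positive and blue is negative. The *Sfrp5* row is positive with neuron (0.89) and myelinating Schwann cell markers (0.77), where the rows of the other 5 genes are negative.

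The medians of the meningeal and adipocyte marker lists had the same signs as *Frzb* in the first and second comparison. In the third, bPYX+NT3 against naive, they had the other sign, at -0.066 and -1.63, where *Frzb* was at 0.17. All 10 genes of the meningeal list had reads in every rat. Its median log2 fold change was 0.30 for bPYX+GFP against naive and -0.28 for bPYX+NT3 against bPYX+GFP, where the medians over all genes were 0.012 and 0.0049. Its fold change had the other sign for 3 of the 10 genes in the first comparison (*Tbx18*, *Lama1* and *Crabp2*). In the second, only *Lama1* had the other sign, at 0.0064, and *Crabp2* was close to 0, at -0.042. In edgeR 1 of the 10 was higher in the first comparison (*Zic1*, a transcription factor of the meninges), where 3.25% of all genes were called, and 2 were lower in the second (*Zic2*, of the same family, and *Cldn11*, a tight junction protein), where 1.73% were called. The summed level ranged from 2029 to 3676 in naive, 2235 to 4316 in bPYX+GFP and 1622 to 3725 in bPYX+NT3 rats, so the groups overlapped. Within groups, *Frzb* and the list had r = 0.11 (permutation p = 0.677). The adipocyte list had 2 tested genes, *Fabp4*, a fatty acid binding protein, and *Adipoq*, which encodes adiponectin. Its median was 0.46 in the first comparison, with 0 called, and -2.08 in the second, with both called lower. Its summed level ranged from 23.4 to 637 in naive, 30.9 to 1009 in bPYX+GFP and 24.5 to 171 in bPYX+NT3 rats. Of the fibroblast markers, 3 of 5 tested genes were lower in bPYX+GFP than in naive rats in edgeR, against 3.25% of all genes called there. They were *Lum*, and *Col1a1* and *Col3a1*, which encode fibrillar collagens. In bPYX+NT3 against naive rats 3 of the 5 were also lower (*Dcn*, *Col1a1* and *Col3a1*), where 6.01% of all genes were called. Of the cartilage markers 2 of 5 were lower in bPYX+GFP than in naive rats (*Col9a1* and *Col2a1*). Of the myelinating Schwann cell markers 1 of 5 was lower in that comparison (*Pmp22*). The part of any of these lists in the difference of *Frzb* was not tested.

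The genes most like each antagonist were taken by Spearman's rho over the 18 rats with group means removed, among 11821 genes, as a description. For *Frzb* they were *Cdh11*, a cadherin (rho = 0.81), an identifier with no symbol in the RefSeq table (NM_001107236, 0.79), the zinc finger gene *Zfp354a* (0.78), *Car8* (0.77) and *Aspa*, which encodes aspartoacylase (0.76). *Sfrp1* was most like *Rlig1* (0.95), the mitochondrial ribosomal gene *Mrps31* (0.95) and *Gphn*, which encodes gephyrin (0.94). *Dkk3* was also most like *Mrps31* (0.93), with *Piwil2* (0.93) and *Arpp21* (0.91). *Sfrp4* was most like *Twist1*, a transcription factor of mesenchymal cells (0.89), *Etfbkmt* (0.87) and *Klhl4* (0.86), *Sfrp2* most like *Dap3* (0.79), *Pigx* (0.78) and *Nepro* (0.78), and *Sfrp5* most like *Stk11ip* (0.95), *Arsa* (0.95) and *Slc45a1* (0.94).

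The rest of the pathway was followed in lists of 81 genes, of which 51 passed the filter on low counts. Of these 51, 2 were called between bPYX+GFP and naive rats (3.92%, against 3.25% of all genes), both lower. NT3 against GFP gave 3 calls (5.88%, against 1.73%), all lower, and between bPYX+NT3 and naive rats 5 (9.80%, against 6.01%), 1 higher and 4 lower. The medians of their log2 fold changes were 0.0096, -0.0078 and -0.0070. Leaving out 1 rat gave 1 to 4, 0 to 8 and 2 to 6 called genes. In the first comparison 4 were reached without rat 49 or 57, where 360 and 595 of all genes were called. In the second, 0 were reached without rat 15, where 112 of 11590 genes were called. There 8 were reached without rat 57, where 2291 of 11556 genes were called. After adjustment over all genes in edgeR's quasi-likelihood test 0 were called.

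*Ccnd1*, which encodes cyclin D1 and is a known target of beta-catenin, was the clearest of these. Its normalized counts were 593, 688 and 763 (lowest, median and highest) in naive rats, 454, 477 and 568 in bPYX+GFP rats and 427, 536 and 676 in bPYX+NT3 rats. The naive and bPYX+GFP rats did not overlap. The share of all genes without overlap was not computed, and 3.25% of all genes were called in this comparison. *Ccnd1* was lower in bPYX+GFP than in naive rats (log2 fold change -0.48, SE 0.0761, adjusted p = 0.201). The bPYX+NT3 rats were also below naive rats (log2 fold change -0.36, SE 0.102, adjusted p = 0.607). Both values passed an unadjusted p of 0.05 in 12 of 12 fits that left out 1 rat. These adjusted values are of edgeR's quasi-likelihood test. In its likelihood ratio test *Ccnd1* had the smallest adjusted p of all genes between bPYX+GFP and naive rats, at 0.00066. DESeq2 gave it an unadjusted p of 1.1e-08 there. The other 7 target genes that were tested, among them *Axin2*, were not called in any comparison.

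Among ligands, *Wnt6*, *Wnt16* and *Wnt7a* had the highest mean counts and were not called. *Wnt2b* was lower in bPYX+NT3 than in bPYX+GFP rats (log2 fold change -0.33, SE 0.148, adjusted p = 0.851), and *Wnt5a*, a ligand of the branch without beta-catenin, was lower in bPYX+NT3 than in naive rats (-0.32, SE 0.133, adjusted p = 0.607). Among receptors, *Lrp6*, *Fzd4* and *Fzd1* had the highest mean counts and were not called. *Fzd3*, a receptor known in axon guidance, had medians of 266, 266 and 208 in naive, bPYX+GFP and bPYX+NT3 rats. It was lower in bPYX+NT3 rats than in both other groups, by a log2 fold change of -0.42 against bPYX+GFP (SE 0.166, adjusted p = 0.851) and -0.41 against naive rats (SE 0.150, adjusted p = 0.607). The receptor kinase gene *Ror2* was higher in bPYX+NT3 than in naive rats (0.61, SE 0.268, adjusted p = 0.607) and the Wnt receptor gene *Ryk* lower (-0.18, SE 0.0792, adjusted p = 0.607).

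Among the other secreted inhibitors, *Igfbp4*, *Sostdc1* and *Serpinf1* had the highest mean counts and were not called. *Cer1*, which encodes the secreted protein Cerberus, was lower in bPYX+NT3 than in bPYX+GFP rats (-0.45, SE 0.197, adjusted p = 0.851). *Tcf7l1*, a transcription factor of the pathway, was lower in bPYX+GFP than in naive rats (-0.31, SE 0.126, adjusted p = 0.9998). No gene of the enhancer list or of the membrane inhibitors passed. In fits that left out 1 rat, the call of *Wnt2b* was kept in 3 of 12, that of *Ryk* in 5 of 12 and those of *Cer1*, *Ror2* and *Wnt5a* in 6 of 12, that of *Tcf7l1* in 8 of 12, and those of *Fzd3* in 10 and 12 of 12.

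**Figure D5:**
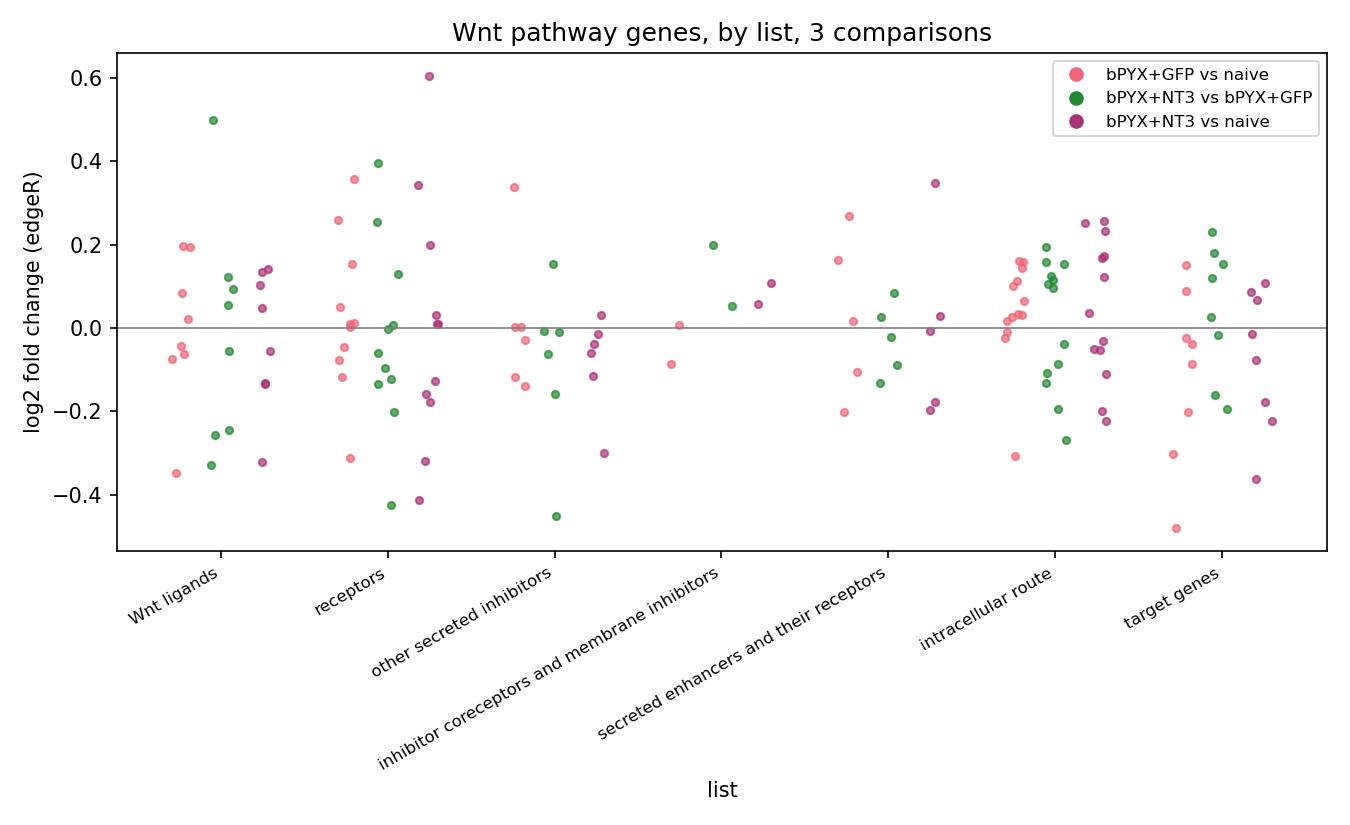
Log2 fold change from edgeR (y axis) of the Wnt pathway genes that passed the filter, by list (x axis) and comparison (colour); each point is 1 gene. The lowest red point among target genes is *Ccnd1*, at -0.48 for bPYX+GFP against naive.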

How the data were processed

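Poly(A) RNA-seq of 18 rats was used. The paired 50 bp reads were mapped by the authors with TopHat2 (Rnor_6.0). Picard was used against duplicates and HTSeq for counting by RefSeq identifier, and the deposited counts are whole numbers, not normalized; base calls were made with bcl2fastq 1.8.4, per the labels. Of 15075 identifiers, 14193 matched a symbol in the RefSeq table (GRCr8). Reads on no feature (30.8% to 34.6% of read-pairs), ambiguous reads and reads at several locations were left out of library sizes.

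Each pair of groups was fitted in R 4.3.3 with edgeR 4.0.16 (TMM, estimateDisp, glmQLFit, glmQLFTest), keeping genes above 10 reads in 6 or more of the 12 rats, with Benjamini-Hochberg adjustment. Genes were called at an unadjusted p under 0.05, the threshold of the study. For single levels the log2 CPM (prior count 2) entered an exact permutation test, two-sided, and correlations were tested with 100000 permutations within groups. The fit was tested on simulated data. Alternatives were DESeq2 1.42.0, edgeR with DESeq2 size factors, edgeR on library size alone, the likelihood ratio test, other filters, 1 fit over the 3 groups, the groups of the recorded titles, a replicate block and leaving out each rat; leaving out rats 57 and 11 was chosen after seeing the data. The members and lists were chosen with earlier results of these data known. The genes named are the members, the called genes of the lists, the 3 ligands, receptors and inhibitors with the highest mean count, and the genes most alike in rank. The p-values of edgeR and of the exact permutation test set a difference between groups against the spread between rats. Those of the correlations set r or rho against permutations of the rats within groups. Python 3.11.15 with numpy 2.4.6, pandas 2.3.3, scipy 1.17.1 and matplotlib 3.10.9 was used.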

Additional observations from a re-analysis of the deposited data

Results flagged for a closer look

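*Sfrp5* in bPYX+GFP rat 57 was far from the other rats of its group. Its normalized count was 2720, against 1818 in the next highest rat and 1564 in the lowest, so that the gap took up 0.781 of the whole range, which is above Dixon's 95% critical value for 6 rats. It was the only one of 18 groups of 6 values (6 genes in 3 groups) past that value; chance alone flags about 1 in 20 groups. The library of rat 57 also had the lowest share of read-pairs at several locations (19.0%) and a high summed level of neuron markers (68199). The part of these in the level of *Sfrp5* was not tested.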

How the results depend on the processing

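With another normalization, test or filter, with 1 fit over the 3 groups and with rats 57 and 11 left out, *Frzb* kept its direction in the first and second comparison, as a description; leaving out 1 rat, its log2 fold change ranged from 0.50 to 0.62 and from -0.41 to -0.32. Counts of members called include *Frzb*, which chose the set, and support nothing for it. The cause of the changes below was not tested. With the groups of the recorded titles, 0 members were called in any comparison, and the pathway genes called were 1 between bPYX+GFP and naive and 0 between bPYX+NT3 and naive rats. The log2 fold changes then reversed to -0.20 (*Frzb*), 0.075 (*Sfrp1*), 0.28 (*Sfrp2*) and 0.29 (*Sfrp4*) for bPYX+GFP against naive. For bPYX+NT3 against bPYX+GFP they were -0.013 (*Sfrp1*), -0.028 (*Sfrp2*), -0.23 (*Sfrp4*), 0.013 (*Dkk3*), 0.020 (*Cer1*) and 0.22 (*Fzd3*). For bPYX+NT3 against naive they were -0.25 (*Frzb*), 0.062 (*Sfrp1*), 0.25 (*Sfrp2*), 0.061 (*Sfrp4*), -0.036 (*Sfrp5*), 0.10 (*Dkk3*), 0.23 (*Ccnd1*), 0.21 (*Fzd3*), -0.38 (*Ror2*), 0.031 (*Ryk*) and 0.21 (*Wnt5a*). *Sfrp1* between bPYX+NT3 and naive rats, close to 0 throughout, was 0.0014 with DESeq2 size factors, 0.029 with library size alone, 0.0013 with DESeq2, 0.00016 in 1 fit over the 3 groups and 0.040 without rats 57 and 11, where *Sfrp5* was -0.063. Pathway genes called between bPYX+NT3 and bPYX+GFP were 1 with library size alone and 5 in 1 fit over the 3 groups. Without rats 57 and 11 they were 4 between bPYX+GFP and naive and 3 between bPYX+NT3 and naive rats. Pairs of members passing were 4 with group means kept and 0 with library size alone.

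The labels give same-numbered rats nothing in common but the number. Their deviations correlated between -0.40 and 0.53, and over 0.1 in 2, 3 and 5 of 6 pairs of the 3 comparisons. Of the 6, 1, 1 and 3 correlated best with their own number. These values do not settle whether same-numbered rats share more than the number. With a replicate block, members called were 2 (*Sfrp2* added) between bPYX+GFP and naive rats, pathway genes called were 1 between bPYX+NT3 and bPYX+GFP and 9 between bPYX+NT3 and naive rats, and *Sfrp4* was -0.019 between bPYX+NT3 and bPYX+GFP rats. All genes called were 316, 130 and 2962 with the block, against 377, 201 and 703 without, 595, 1462 and 365 without rats 57 and 11, 174, 263 and 330 with the groups of the titles, and 315 in the second comparison with no filter. With library size alone the second comparison gave 167 higher and 41 lower genes, against 125 and 76. After adjustment 0 genes were called by edgeR's quasi-likelihood test (1 in the first comparison without rats 57 and 11, *Bcl6b*, and 1 in the last with the groups of the titles, *Depp1*, both outside the rule for named genes and chosen after their values were seen), 13, 0 and 0 by its likelihood ratio test and 17, 0 and 0 by DESeq2.

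Leaving out 1 rat at a time, members called ranged from 1 to 2, 1 to 2 and 0 to 1 in the 3 comparisons (*Sfrp2* added without rat 41, 43 or 21, *Dkk3* without rat 23, and 1 in the last without rat 45), and pathway genes called from 1 to 4 (4 without rat 49 or 57), 0 (without rat 15) to 8 (without rat 57) and 2 (without rat 45) to 6. All genes called ranged from 272 to 595, 95 (without rat 11) to 2291 (without rat 57) and 365 (without rat 11) to 1387. *Sfrp5* ranged from -0.19 to 0.018, -0.024 to 0.22 and -0.063 to 0.090, *Sfrp4* from -0.14 to 0.14 between bPYX+NT3 and bPYX+GFP rats, and between bPYX+NT3 and naive rats *Sfrp1* from -0.040 to 0.040, *Sfrp2* from -0.31 to 0.035 and *Dkk3* from -0.13 to 0.0045. Pairs passing ranged from 1 to 6. Intervals of the 5 other members leave room for differences of up to 0.83 on the log2 scale at this depth and number of rats.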
